A study of Mus musculus with 15 samples.

Results

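Sections of embryonic day 10 (E10) mouse embryos measured with pixels 10 µm wide were compared with E10 sections measured with pixels 50 µm wide. Members were chosen by stage and pixel width in the labels: 2 libraries at 10 µm and 3 at 50 µm, which are 5 of the 11 transcript libraries of the study. A pixel counted as tissue when its total reached 0.1 of its library's 95th percentile over pixels, which gave 6971 tissue pixels of the 17046 in all 11 libraries. At the threshold the totals just kept and just left out were close, for example 1381 and 1371 counts in 1 library at 10 µm. The question was which body parts and tissues the small fields of 10 µm pixels hold or lack.

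The study measured frozen sections of E10, E11 and E12 mouse embryos by barcoding in tissue: barcodes are flowed over the section in microfluidic channels that cross at right angles, and every crossing becomes a pixel with its own pair of barcodes. Besides the 11 transcript libraries there are antibody tag libraries from some of the same sections. The 5 libraries compared share the stage, the tissue preparation and the chemistry, and differ in pixel width. The labels name no strain, sex, genotype or treatment, and they do not say which embryo or which body region a section came from. Nothing says that libraries of a group came from separate embryos, so p-values measure the spread between sections within groups, which may be technical. That spread was estimated over all 11 transcript libraries, so E11 sections with replicates enter it as well. The fit had 5 residual degrees of freedom, against 3 with the 5 compared libraries alone. Pixel width, size of the field and body region cannot be told apart in this design.

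Body position along the head-to-tail axis can be read from Hox genes, homeobox transcription factors whose paralog groups are numbered from the anterior (group 1) to the posterior. The forebrain, midbrain and eye lie in front of the Hox domains, and the hindbrain holds the most anterior groups. In the eye, the optic cup forms from the forebrain wall: its inner layer becomes neural retina, and its outer layer becomes the retinal pigment epithelium, which makes melanin with the enzymes tyrosinase (Tyr), Tyrp1 and Dct on a fibrillar matrix built by Pmel.

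The promoters of 3 of these pigment genes are shown. They belong to the list whose counts form the ring described below, and were chosen because they hold the core described next. Mitf, the master transcription factor of pigment cells, is known to bind the core CATGTG in such promoters. Each window holds up to 40 bases on either side of a core, cut at the transcription start, 5′ to 3′ on the gene's own strand, with the core in capitals (RefSeq, GRCm38.p6). Dct lies on the minus strand (chr14:118052351-118052436), Tyr on the minus strand (chr7:87493513-87493573) and Tyrp1 on the plus strand (chr4:80834127-80834212).
Dct: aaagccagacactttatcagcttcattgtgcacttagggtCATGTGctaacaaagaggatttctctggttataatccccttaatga
Tyr: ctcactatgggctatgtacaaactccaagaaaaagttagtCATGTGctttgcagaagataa
Tyrp1: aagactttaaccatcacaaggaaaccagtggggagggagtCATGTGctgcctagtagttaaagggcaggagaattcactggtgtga
Of the 8 genes in the pigment list, 5 matched the promoter table, and 3 of these held CATGTG on either strand in the 250 bases before a start. Over all 32851 promoters of that length, 12.3% held it. The core lay 150, 21 and 46 bases before the start in Dct, Tyr and Tyrp1, and Dct held a second one farther upstream that is not shown. A match is a description of letters, not of a bound site.

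The tissue pixels numbered 2173 and 2271 in E10 10 µm replicates 1 and 2, and 859, 829 and 839 in E10 50 µm replicates 1, 2 and 3. At 10 µm the pixels covered 0.217 and 0.227 mm2 of tissue, against 2.07 to 2.15 mm2 at 50 µm, the gaps between channels not counted. Summed counts were 12.0 and 5.30 M (1e6 counts) at 10 µm and 8.39 to 11.3 M at 50 µm, and the median count per tissue pixel was 4020 and 2096 against 8239 to 11332. Pseudogenes took 8.67% and 10.6% of counts at 10 µm and 6.36% to 6.72% at 50 µm, and ribosomal protein genes 12.1% and 13.1% against 8.34% to 11.4%. A fit without pseudogenes called 16 genes instead of the 20 reported below. The part of ribosomal protein genes in the results was not tested. Levels are given as CPM, counts per 1e6 gene counts in the tissue pixels of a library, and fold changes are log2 of 10 µm over 50 µm from edgeR's quasi-likelihood test, each with its standard error (SE).

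Among the genes that fell at 10 µm were Hox genes and genes of hindbrain, cord and neuron lists, and 10 of the 20 called genes were in no list. Of 18233 genes tested, 19 were lower at 10 µm (0.104%) and 1 was higher (0.00548%) at an adjusted p under 0.05, and 1978 had an unadjusted p under 0.05 (911 lower, 1067 higher). Both 10 µm libraries lay below all 3 at 50 µm for 17.1% of tested genes and above them for 13.7%. The median log2 fold change over all tested genes was -0.03. The number called depended on single libraries: it was 0 when E10 10 µm replicate 2, E10 50 µm replicate 1 or 3, or either E11 25 µm library was left out of the fit, 12 without E10 50 µm replicate 2, and 155 to 164 without E10 10 µm replicate 1 or either E11 10 µm library. DESeq2 called 403 genes (181 lower, 222 higher). In bulk sums, fewer cells of a type and less RNA per cell cannot be told apart.

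**Figure D1:**
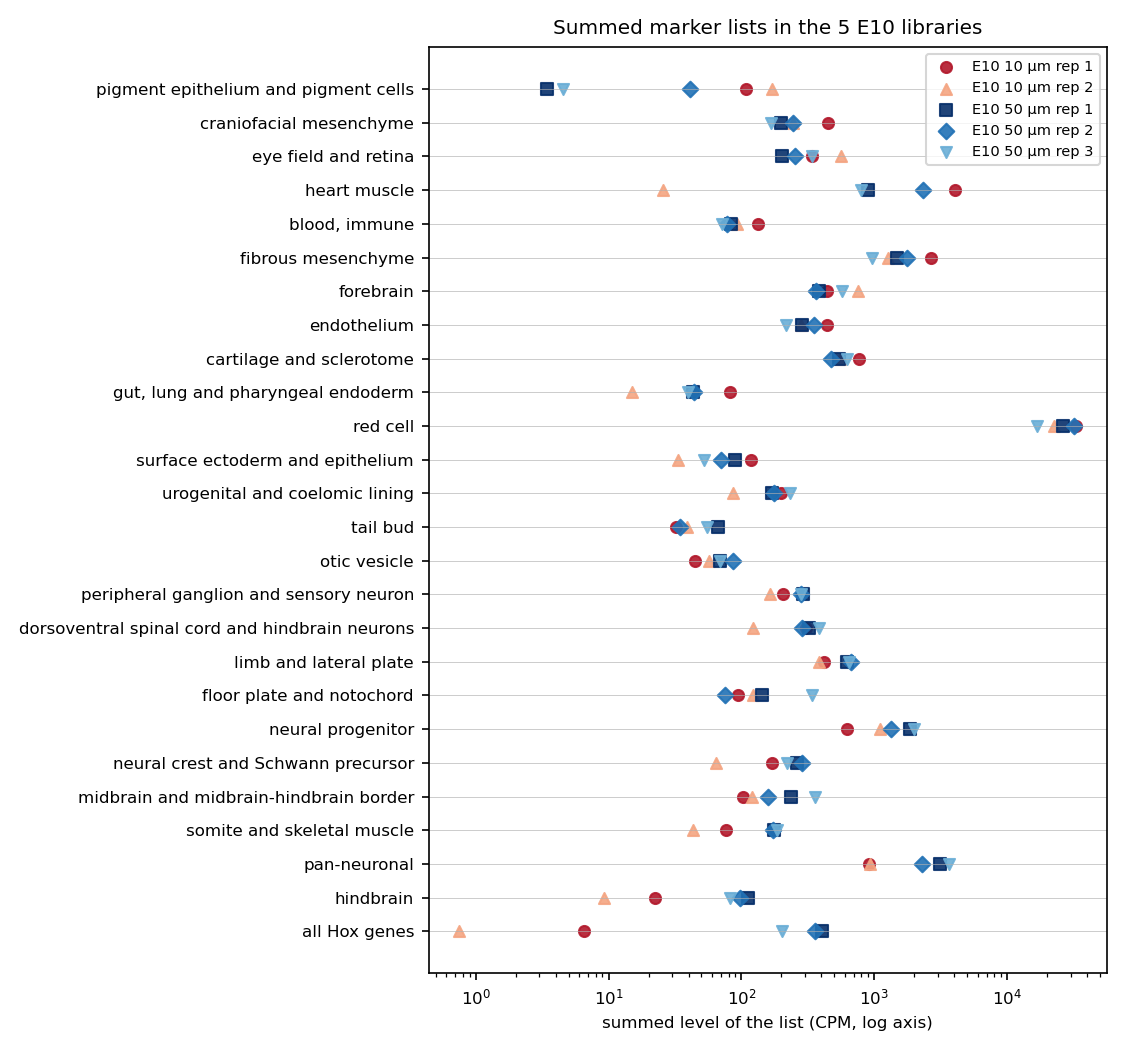
Summed level of marker lists (y axis) in the 5 E10 libraries, in CPM on a log x axis. Each symbol is 1 library, and lists are ordered by the log2 difference between the widths. Hox genes are shown as 1 list. The lens, liver, placenta and yolk sac, and sex-linked lists are not shown. All Hox genes lie at 0.755 and 6.58 CPM at 10 µm against 203 to 406 CPM at 50 µm, pigment genes lie at 109 and 169 CPM against 3.44 to 41.1 CPM, and heart muscle genes separate the 2 libraries at 10 µm.

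Hox transcripts were nearly missing from the small fields. Summed over the 39 Hox genes in the count tables, 79 and 4 counts were found in E10 10 µm replicates 1 and 2, against 4605, 2974 and 2158 in E10 50 µm replicates 1 to 3. As a level this was 6.58 and 0.755 CPM against 406, 354 and 203 CPM, a difference of 66.8-fold between the pooled groups. At 10 µm, 21 of the 39 genes had no count in either library, while 7 had none in any of the 3 libraries at 50 µm. Of 35 Hox genes tested, 3 fell and 25 lay below all 50 µm libraries in both 10 µm libraries, and 13 had an adjusted p under 0.1. Hox genes lie close together and overlap their neighbours and antisense transcripts, and the use of strand in counting is not given in the sources used here, so the share of each gene within a cluster is uncertain.

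In paralog groups 1 to 3, which pattern the hindbrain and the neural crest of the pharyngeal arches, 3 of 7 tested genes fell, all 7 lay below the 50 µm range, and the median log2 fold change was -4.53 (-7.63 without E10 10 µm replicate 1). Hoxb1 (chr11:96365752-96368256, plus strand, GRCm38), a gene of the fourth hindbrain segment, was at 0.667 and 0.189 CPM at 10 µm and at 9.25, 17.2 and 8.84 CPM at 50 µm. The groups did not overlap, and the log2 fold change was -4.53 (SE 0.60, adjusted p 0.0339). Hoxb3 was at 0.167 and 0 CPM against 6.79, 10.0 and 10.7 CPM, a ratio of 78.3-fold with a 95% counting interval of 21.5 to 650. Hoxa3 (chr6:52169062-52213336, minus strand), a gene of the caudal hindbrain and pharyngeal arches, had no count at 10 µm and stood at 12.4, 4.77 and 4.61 CPM at 50 µm, at least 43.7-fold lower with a floor of 3 counts over the group (adjusted p 0.0339). All 3 genes rested on 0 to 8 counts per library at 10 µm.

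Paralog groups 4 to 8, which mark the caudal hindbrain, spinal cord and trunk, gave no call in edgeR. All 15 genes tested lay below the 50 µm range in both small fields, with adjusted p from 0.0721 to 0.638 and a median log2 fold change of -7.27 (-6.66 with genes at 0 set at their bound). DESeq2 called 12 of the 15. Hoxa5 was at 0.667 and 0.189 CPM at 10 µm and at 76.0, 50.9 and 32.6 CPM at 50 µm (adjusted p 0.139). In groups 9 to 13, Hoxb9 was at 0.667 and 0 CPM against 26.8, 106 and 16.6 CPM (adjusted p 0.142), highest in E10 50 µm replicate 2. Groups 10 to 13 held at most 0.658 CPM per group in any of the 5 libraries, so both widths were near the floor there.

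**Figure D2:**
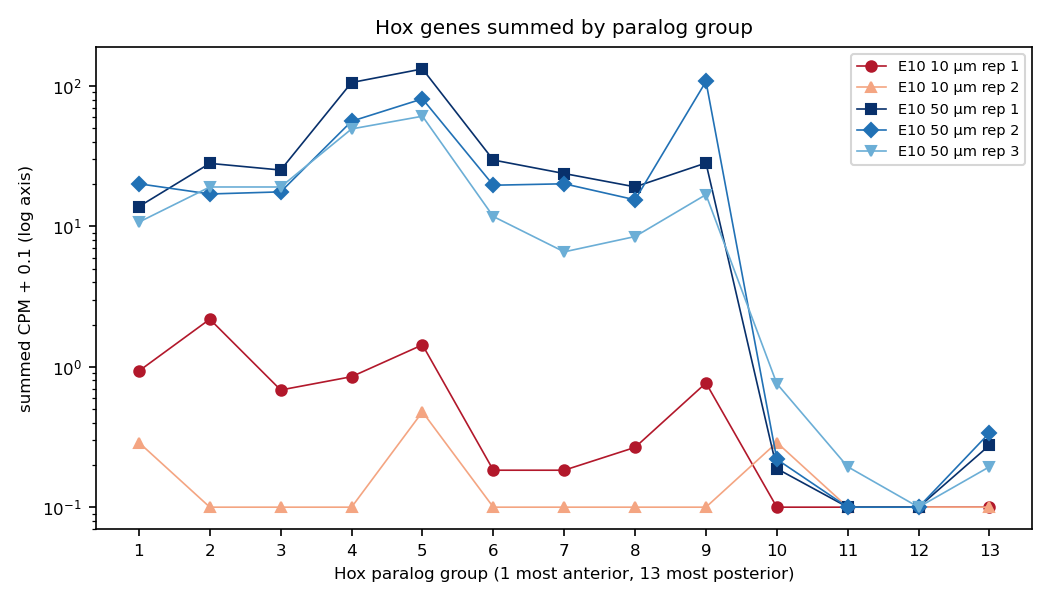
Hox genes summed by paralog group (x axis, 1 most anterior) in each E10 library, as CPM + 0.1 on a log axis; each line is 1 library. The 3 lines at 50 µm peak at group 5 with 60.8 to 132 CPM, or at group 9 with 108 CPM in replicate 2, whereas the 2 lines at 10 µm stay at or below 2.08 CPM in every group.

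Within the large fields, Hox counts were concentrated along 1 end of the tissue. After each pixel was thinned to 1000 counts, 23.7%, 18.3% and 20.02% of tissue pixels held a Hox count at 50 µm, against 0.782% and 0.109% at 10 µm. Thinning left out the pixels of E10 10 µm replicate 2 below that depth, so that 1834 of 2271 remained. Without thinning the shares were 77.1%, 60.2% and 69.6% against 3.22% and 0.176%. Moran's I, the correlation of a pixel with its 4 nearest neighbours, was 0.69, 0.63 and 0.59 at 50 µm and 0.12 and -0.00 at 10 µm. The 10 µm values rest on 79 and 4 Hox counts, too few to describe a spatial pattern. Neighbouring pixels also lie closer together at 10 µm.

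Hindbrain and cord genes outside the Hox clusters were also among those that fell. Of 9 hindbrain genes tested, some of them Hox genes, 2 fell, Hoxb1 among them, and 8 lay below the 50 µm range, and the median log2 fold change was -4.45. Msx3, a homeobox gene of the dorsal neural tube, was at 4.17 and 0.755 CPM against 73.5, 52.3 and 64.6 CPM, a log2 fold change of -4.52 (SE 0.65). It was the 1 of 11 neural progenitor genes that fell.

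Of 19 tested genes of dorsoventral cord and hindbrain neurons, 3 fell and 10 lay below the 50 µm range (median -1.57, or -4.84 without E10 10 µm replicate 1). The summed list was at 306 and 123 CPM at 10 µm and at 322, 285 and 384 CPM at 50 µm, so replicate 1 lay within the 50 µm range. Glra1, a subunit of the glycine receptor, was at 1.75 and 0.189 CPM against 29.2, 21.1 and 36.5 CPM, with a log2 fold change of -4.62 (SE 0.57). Foxb1, a forkhead gene of the dorsal neural tube and the mammillary region, was at 0.167 and 0 CPM against 9.34, 2.98 and 12.2 CPM, 74.3-fold (20.4 to 617, counting error). Lhx1, a LIM homeobox gene of cord interneurons, was at 12.3 and 8.68 CPM against 64.6, 59.9 and 109 CPM, with a log2 fold change of -2.85 (SE 0.47, adjusted p 0.0481). Lhx1 is also made in the nephric duct and is the only called gene of the urogenital list. Slc18a3, the vesicular acetylcholine transporter of cholinergic neurons, was at 0.167 and 0 CPM against 5.82, 4.53 and 4.42 CPM, 43.0-fold (11.7 to 358).

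Pan-neuronal genes lay lower throughout. All 11 pan-neuronal genes lay below the 50 µm range, 2 fell, and the median log2 fold change was -1.69. The summed list stood at 916 and 927 CPM at 10 µm and at 3136, 2275 and 3633 CPM at 50 µm, so that the small fields were close to each other and apart from the large ones. Ina, an intermediate filament of young neurons, was at 63.0 and 61.1 CPM against 278, 242 and 341 CPM (log2 fold change -2.18, SE 0.34, adjusted p 0.0339). Gap43, a growth cone protein, was at 106 and 68.7 CPM against 327, 262 and 410 CPM (-1.90, SE 0.32, adjusted p 0.0492). Thinned to 1000 counts, 41.2% and 47.5% of tissue pixels held a count of the list at 10 µm, and 80.2%, 73.5% and 85.2% at 50 µm.

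Further genes that fell were Scube2, a secreted protein of Hedgehog signalling, St6galnac5, a sialyltransferase, Rab3c, a vesicle GTPase, Draxin, an axon guidance protein, Slc1a2, a glutamate transporter, Rbfox1, a neuronal splicing factor, Tppp3, which binds tubulin, and Smpd3, a sphingomyelinase. Of these, Draxin, Slc1a2, Rbfox1, Tppp3 and Smpd3 were named after their values were seen. Tppp3, for example, was at 16.6 and 12.3 CPM against 78.4, 57.1 and 97.3 CPM. The 1 gene that rose was the processed pseudogene Gm7434, also named after its value was seen, at 19.4 and 10.0 CPM against 2.64, 4.29 and 3.29 CPM. Reads of a pseudogene can be shared with its parent gene, so its value is uncertain.

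Midbrain and somite genes lay lower without a call. Of 12 genes of the midbrain and its border with the hindbrain, none passed the test and 8 lay below the 50 µm range (median log2 fold change -1.19). En1, a homeobox gene of that border, was at 0.333 and 0 CPM against 11.4, 2.03 and 19.2 CPM (adjusted p 0.0892). Of 11 tested somite and skeletal muscle genes 8 lay below, with a median of -2.06, and the summed list was at 76.1 and 42.8 CPM against 176, 174 and 186 CPM. Uncx, a homeobox gene of the caudal somite that is also made in the nervous system, was at 9.83 and 12.6 CPM against 45.6, 46.2 and 74.0 CPM (adjusted p 0.0924). Medians were also negative for the 8 otic vesicle genes (-1.44), the 12 genes of peripheral ganglia (-1.09), the 9 of neural crest (-0.84) and the 15 of limb and lateral plate (-0.74), with no call in any of them. The medians moved when single libraries were left out. Without E10 10 µm replicate 1 each was more negative: -2.21 (midbrain), -3.81 (somite), -2.77 (otic vesicle), -1.73 (ganglia), -3.09 (neural crest) and -1.57 (limb). Without E10 10 µm replicate 2 they were -1.17 (midbrain), -1.63 (somite), -1.49 (otic vesicle), -1.16 (ganglia), -0.02 (neural crest) and -0.48 (limb).

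Hepatocyte markers were near 0 at both widths. Alb, the serum albumin of hepatocytes, had no count in either library at 10 µm nor in replicates 1 and 2 at 50 µm, and was at 1.22 CPM in E10 50 µm replicate 3. Afp was at most 2.16 CPM in any of the 5 libraries, again in that replicate. Ttr, a thyroid hormone carrier of liver, yolk sac and choroid plexus, was at 3.17 and 11.7 CPM at 10 µm and at 134, 55.4 and 126 CPM at 50 µm, which did not overlap but missed the threshold (adjusted p 0.444).

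The pigment list and the eye field and retina list had the largest positive medians of the lists, although none of their genes passed the test. All 6 tested pigment genes lay above the 50 µm range in both 10 µm libraries, with a median log2 fold change of 2.94 (5.56 without E10 50 µm replicate 2) and adjusted p from 0.301 to 0.670. Pmel was at 60.1 and 111 CPM at 10 µm and at 0.617, 16.0 and 0.940 CPM at 50 µm, a log2 fold change of 3.87 (SE 1.66, adjusted p 0.487). Dct was at 16.6 and 23.8 CPM against 0.617, 10.8 and 0.188 CPM. Tyr was at 6.25 and 7.74 CPM against 0, 2.38 and 0 CPM, and Tyrp1 at 3.42 and 6.04 CPM against 0, 1.55 and 0.188 CPM. E10 50 µm replicate 2 was the highest of its group for each of these 4 genes, which widened the spread at 50 µm. Mitf was at 13.2 and 8.68 CPM against 1.85, 6.32 and 2.92 CPM.

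Of 11 genes of the eye field and retina, all had a positive log2 fold change, 8 lay above the 50 µm range and the median was 1.45. Their adjusted p ran from 0.213 to 0.991. The summed list was at 341 and 556 CPM at 10 µm and at 201, 251 and 340 CPM at 50 µm. Replicate 1 at 10 µm was thus nearly equal to replicate 3 at 50 µm. Six6, a homeobox gene of the retina and pituitary, was at 46.9 and 21.9 CPM against 2.82, 15.9 and 1.97 CPM. Aldh1a1, which makes retinoic acid in the dorsal retina, was at 55.5 and 13.8 CPM against 2.82, 10.7 and 1.88 CPM. Pax6, which is made in much of the forebrain and hindbrain as well, was at 71.8 and 206 CPM against 80.5, 99.3 and 206 CPM, so its groups overlapped. Of the lens crystallins, Cryaa had no count in any of the 5 libraries and Cryba1 reached at most 0.752 CPM, both named after their values were seen. Cryab, a small heat shock protein also made in heart, was at 32.3 and 6.42 CPM at 10 µm against 8.20, 15.1 and 7.80 CPM, with overlapping groups. The summed lens list was at 141 and 80.2 CPM against 74.5, 79.97 and 98.7 CPM.

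In each small field the pigment counts formed a ring. Pigment-rich pixels were those at or above the 97th percentile of the pigment level with at least 2 counts. In E10 10 µm replicate 1, 51 of 59 such pixels were connected, and 60 of 63 in replicate 2. A circle fitted to these pixels had a radius of 7.63 pixels in replicate 1 (SD of the distance 1.09) and of 6.32 pixels in replicate 2 (SD 1.68). These pixels held 62.0% and 49.2% of all pigment counts of their library. The circle was placed by the pigment counts themselves and was added after the maps were seen, so the pigment profile around it is a description. At 50 µm, pigment counts formed a small spot in replicate 2 and were sparse in replicates 1 and 3.

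**Figure D3:**
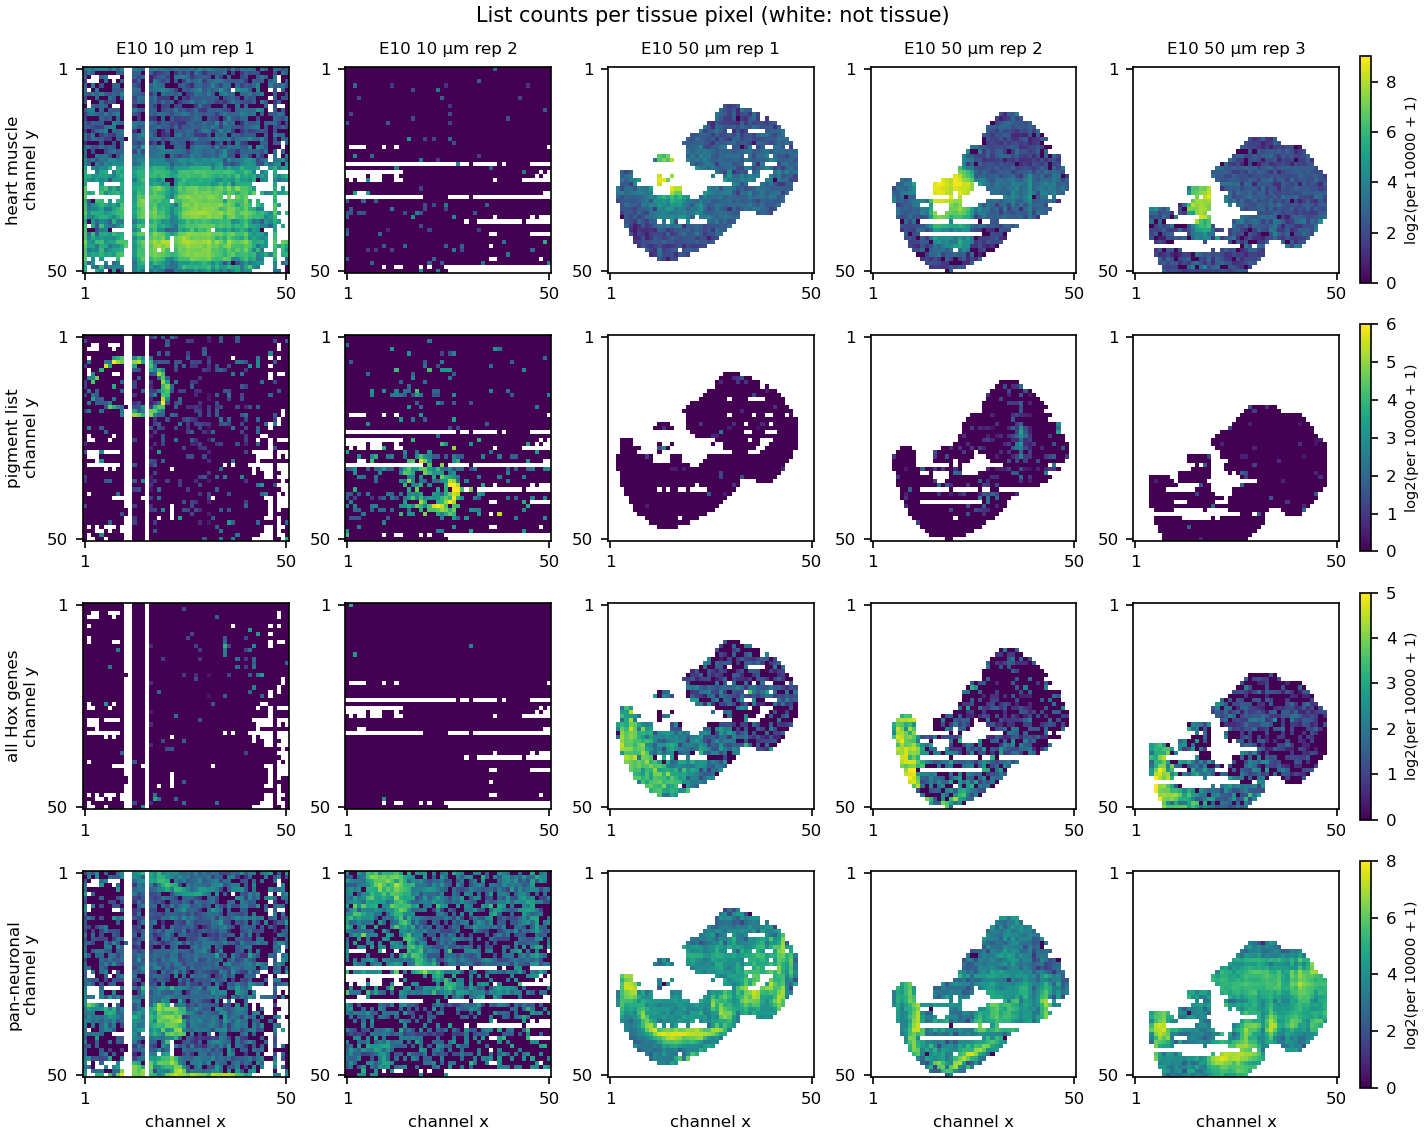
Maps of 4 gene lists (top to bottom) in the 5 E10 libraries (left to right) on the grid of channels x and y, coloured by log2(list count per 10000 + 1) with white for pixels that are not tissue. The pigment list draws a ring of 7.63 and 6.32 pixels radius in the 2 fields at 10 µm; heart muscle fills the lower part of replicate 1 at 10 µm, and Hox genes mark 1 end of each field at 50 µm.

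Retinal genes, which were not used to place the circle, were highest inside it. In E10 10 µm replicate 1 the eye field and retina list was at 1784 CPM within 0.4 radii of the centre (95% counting interval 1545 to 2050), 1759 CPM from 0.4 to 0.8 radii, 1091 CPM on the ring, 257 CPM from 1.2 to 2 radii and 199 CPM beyond. In replicate 2 the same bands were at 1780 CPM (1397 to 2234), 1643, 700, 458 and 497 CPM. The levels inside the ring were close in both fields, and the level outside was higher in replicate 2. Many counts of the list lay away from the ring: 1734 of 4089 in replicate 1 and 2085 of 2947 in replicate 2 lay beyond 2 radii. Aldh1a1 was at 224 CPM at the centre and 441 CPM from 0.4 to 0.8 radii in replicate 1. In replicate 2 it was at 192 CPM (83.1 to 379) and 117 CPM (74.7 to 174) in those bands, which did not differ beyond counting error.

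The pigment list itself was at 62.8, 161, 1061, 50.2 and 35.5 CPM over the same 5 bands in replicate 1, and at 313, 1098, 1450, 192 and 45.1 CPM in replicate 2. Tyr, for example, was at 81.6 CPM from 0.8 to 1.2 radii in replicate 1 and at 83.8 CPM there in replicate 2, and had no count within 0.4 radii in either. Tyrp1 was at 44.0 CPM on the ring of replicate 1, but had 2 counts on that of replicate 2 (8.38 CPM). Replicate 1 therefore had a hollow ring, while in replicate 2 pigment counts reached farther inward. Fibrous mesenchyme genes (collagens and the like) ran the other way, from 1094 CPM at the centre to 2535 CPM at 1.2 to 2 radii in replicate 1, and from 818 to 2033 CPM in replicate 2. Craniofacial mesenchyme genes were at 251 and 592 CPM in those bands of replicate 1, and at 241 and 437 CPM in replicate 2. In replicate 2 the craniofacial counting intervals of those bands overlapped (115 to 442 and 386 to 492 CPM). Beyond 2 radii, fibrous mesenchyme genes were at 2871 CPM in replicate 1 and at 1155 CPM in replicate 2. Craniofacial genes were at 442 and 214 CPM there, so in replicate 2 they were no higher than at the centre.

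**Figure D4:**
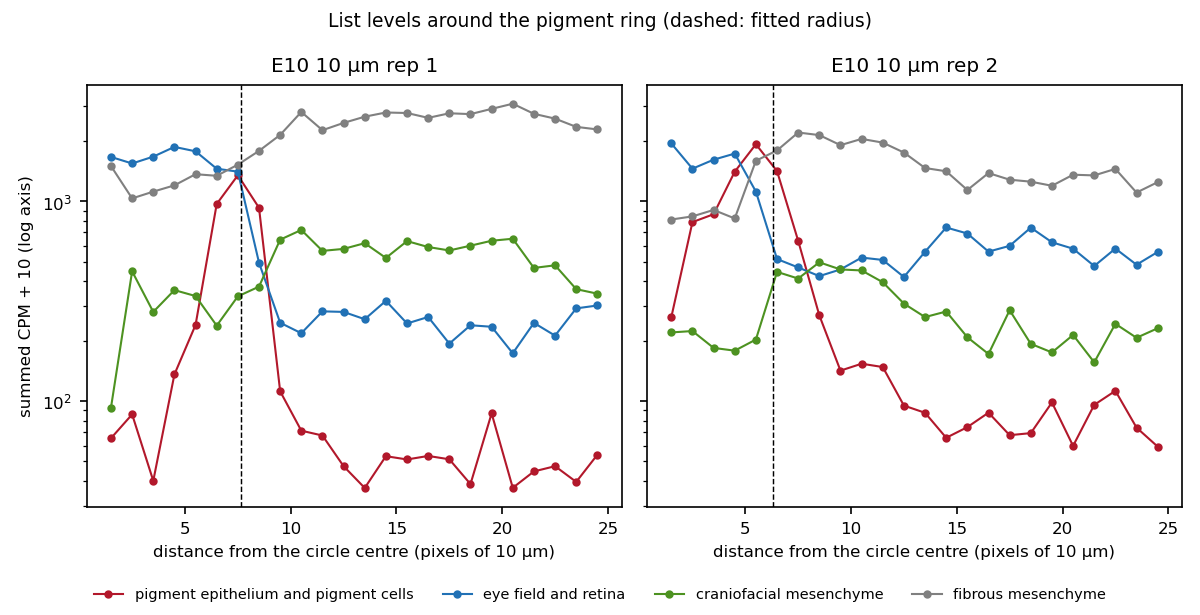
Summed level of 4 lists, as CPM + 10 on a log axis, in rings 1 pixel wide against the distance from the centre of the pigment circle in pixels of 10 µm; the left panel is E10 10 µm replicate 1, the right one replicate 2, and the dashed line is the fitted radius. The pigment list peaks at the line in replicate 1 and just inside it in replicate 2, the retina list is high inside it and lower outside, and both mesenchyme lists are higher just outside than at the centre.

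Counts of the craniofacial mesenchyme list were found in both small fields. The summed list was at 451 and 243 CPM at 10 µm and at 197, 242 and 166 CPM at 50 µm. Replicate 2 at 10 µm was thus nearly equal to replicate 2 at 50 µm. Of 16 craniofacial genes none passed the test, 4 lay above the 50 µm range and 2 below, where 13.7% and 17.1% of all tested genes did. Their median log2 fold change was 0.62, or 0.29 without E10 10 µm replicate 1 and 0.95 without replicate 2. Foxc2, a forkhead gene of the mesenchyme around the eye and of other mesoderm, was at 41.8 and 28.7 CPM against 15.1, 14.4 and 13.5 CPM, a log2 fold change of 1.32 (SE 0.27, adjusted p 0.0892). Of 15 forebrain genes 1 lay above the 50 µm range (median log2 fold change 0.78) and none passed the test, and without E10 10 µm replicate 2 that median was -0.34. Endothelial, red cell and immune genes had medians of 0.39, 0.32 and 0.42 with no call. Without E10 10 µm replicate 1 the endothelial median was -0.23 and the red cell median -0.04, and without replicate 2 the red cell median was 0.58.

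The 2 small fields held different organs. With 1 library against 1 there is no replicate check, and intervals cover counting error only. Of 12485 genes with at least 50 counts in 1 of them, 246 were at least 4-fold higher in E10 10 µm replicate 1 (1.97%) and 53 in replicate 2 (0.425%). Replicate 1 was the deeper library, so a gene high there reached 50 counts more easily. The share of genes 4-fold apart was 2.39% between these 2 libraries and 0.474% to 1.12% between pairs at 50 µm, and the pair with the smallest share for replicate 1 was E10 50 µm replicate 2 (0.73%).

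Heart muscle marked replicate 1. The summed heart list stood at 4030 and 25.9 CPM, against 893, 2320 and 789 CPM at 50 µm. The 2 fields at 10 µm thus bracketed the large fields, and no heart gene was called between the widths. The list's median log2 fold change of 0.76 became -6.24 without replicate 1. Ttn, the giant sarcomere protein titin, was at 888 CPM in replicate 1 and 1.70 CPM in replicate 2, a ratio of 523 (275 to 1143). Myl2, a myosin light chain of the ventricle, was at 600 and 1.89 CPM, a ratio of 318 (173 to 663), and Tnnt2, cardiac troponin T, at 368 and 0.566 CPM. At 50 µm Tnnt2 was at 446, 312 and 273 CPM, so replicate 1 lay within that range. For Ttn and Myl2 replicate 1 lay above the 50 µm range, which reached 793 and 185 CPM. Myh6, a myosin heavy chain most abundant in the atrium at this stage, was at 196 and 0.189 CPM, and Nppa, an atrial peptide hormone, at 23.3 CPM and 0, at least 41.1-fold with a floor of 3 counts.

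Heart counts had a clear place in replicate 1. The list was at 838 CPM over channels y 1 to 25 and at 7953 CPM over channels y 26 to 50, and 50% of its counts lay in 162 of the tissue pixels (7.46%). Moran's I was 0.76 there and 0.01 in replicate 2, where the list had only 137 counts. The pigment ring lay in the upper part of the same field. Heart transcripts also reached the rest of the field at a lower level: the median pixel was at 1322 CPM in replicate 1, and at 594, 567 and 386 CPM in the large fields. In the large fields 50% of heart counts lay in 11.6%, 4.22% and 5.96% of tissue pixels. The contrast was weak in E10 50 µm replicate 1, at 755 CPM over channels y 1 to 25 and 985 CPM over y 26 to 50.

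Epithelial and crest genes, and some limb genes, were also higher in replicate 1 than in replicate 2. Of list genes with at least 50 counts, 4 of 5 surface epithelial, 5 of 7 neural crest and 5 of 11 limb genes were at least 4-fold higher. The summed surface epithelial list was at 117 and 33.2 CPM in replicates 1 and 2, and the neural crest list at 171 and 64.3 CPM. The summed limb list was nearly equal, at 420 and 380 CPM. Oc90, an otoconial protein of the otic vesicle and choroid plexus, was at 22.0 and 0.189 CPM, and at 3.88, 41.0 and 0.282 CPM at 50 µm, so its range among the large fields was as wide. Pax9, a gene of pharyngeal endoderm and facial mesenchyme, was at 46.8 and 1.51 CPM, a ratio of 31.0 (15.6 to 72.2). At 50 µm Pax9 was at 8.90, 24.4 and 5.55 CPM, between the 2 small fields. Shh, the ligand of floor plate and gut epithelium, was at 13.1 and 0.755 CPM, and Epcam, an epithelial adhesion protein, at 22.7 and 2.64 CPM. At 50 µm Shh was at 9.52, 2.98 and 17.8 CPM and Epcam at 22.2, 15.7 and 8.09 CPM. Replicate 1 thus lay within the 50 µm range for Shh and close to its top for Epcam, and replicate 2 lay below both ranges. Neurofilament genes differed too: Nefm was at 101 and 10.6 CPM, although the pan-neuronal sum was nearly equal in the 2 fields. Both Nefm values lay below those at 50 µm, of 343, 261 and 272 CPM.

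Genes known from the dorsal telencephalon, a grouping made after the values were seen, marked replicate 2. Wnt8b, a Wnt ligand of the dorsomedial telencephalon, had 48 counts in replicate 1 and 922 in replicate 2 (174 CPM), 43.5-fold (32.5 to 59.4), against 28.8, 28.1 and 41.5 CPM at 50 µm. Rspo1, Rspo2 and Rspo3, secreted enhancers of Wnt signalling, were 9.30, 7.70 and 10.2-fold higher in replicate 2. Emx2, a homeobox gene of the cortical primordium, was at 10.2 and 69.4 CPM, and Emx1 at 2.83 and 17.2 CPM. Gmnc, a regulator of multiciliated cells, was at 0 and 11.3 CPM, at least 45.3-fold. Fezf2 and Otx1, transcription factors of the forebrain, were 4.18 and 4.26-fold higher in replicate 2. Of 14 forebrain list genes with at least 50 counts, 5 were at least 4-fold higher in replicate 2 and 2 in replicate 1. Those 2 were Nkx2-1, at 14.3 and 1.89 CPM in replicates 1 and 2, and Hesx1, at 5.17 and 0.377 CPM. In replicate 2, the 922 Wnt8b counts lay in 473 tissue pixels, and 50% of them in 102 (4.49%).

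**Figure D5:**
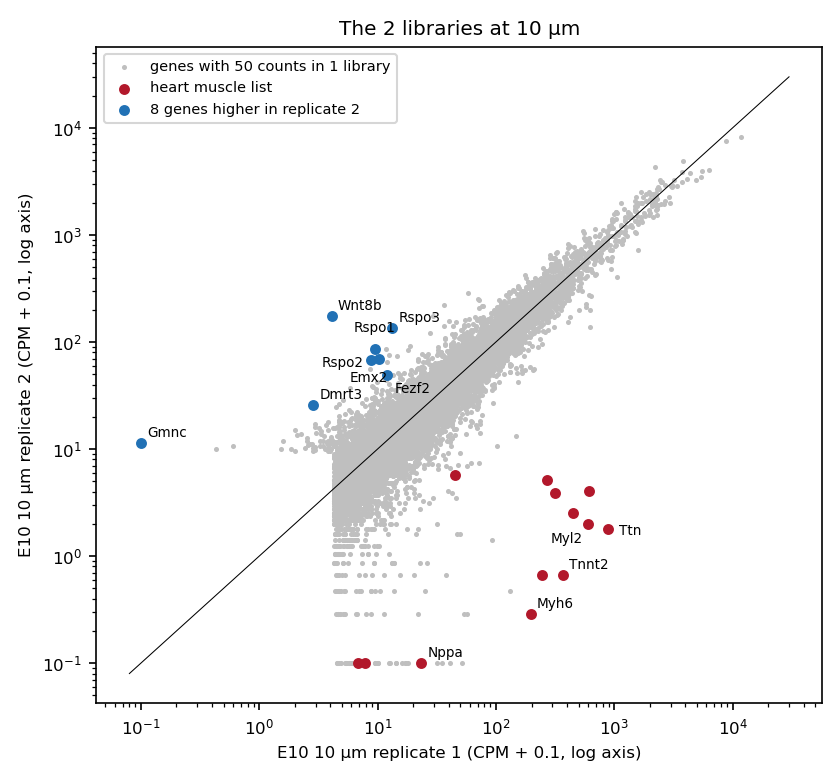
Levels of 12485 genes in E10 10 µm replicate 2 (y axis) against replicate 1 (x axis), as CPM + 0.1 on log axes; the line marks equal levels. Heart muscle genes (red) lie far below the line, with Ttn at 888 and 1.70 CPM, and 8 named genes higher in replicate 2 (blue) lie above it, with Wnt8b at 174 CPM in replicate 2.

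Antibody tags were counted on E10 10 µm replicate 2 and on E10 50 µm replicates 1 and 3, so 1 section stood against 2 with no test. Of 22 antibodies, CD117-KIT took 0.101% of antibody counts in the small field and 6.58% and 7.90% in the large ones, and ESAM took 0.0806% against 2.20% and 5.79%. In these 3 sections the Kit transcript was at nearly the same level at both widths. The Esam transcript was lower in the small field, by a far smaller ratio than its tag and with no test. Kit, the receptor read by the first tag and named after its value was seen, was at 22.0 and 21.5 CPM at 10 µm and at 21.8, 27.2 and 22.6 CPM at 50 µm. Esam, an endothelial adhesion protein named likewise, was at 16.9 and 11.1 CPM against 23.5, 23.6 and 14.7 CPM, and over all 5 libraries the widths overlapped for both. The SiglecH tag took 21.1% against 13.7% and 6.10%.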

How the data were processed

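Transcripts were counted per pixel in 11 libraries of E10 to E12 mouse embryo sections, of which 2 at 10 µm and 3 at 50 µm were compared. The authors deposited whole-number counts per gene and pixel with no normalization; antibody tags were deposited as counts too. Per the submitters' processing notes, CASAVA 1.8.2 was used and the build GRCh38 is named with no role; the aligner, annotation, use of strand and build behind the counts are not given in the sources used here. Gene positions are those of GENCODE M21 (GRCm38).

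Groups came from the labels; replicate numbers follow accession order and pair nothing. The members and the marker lists were chosen with earlier results of these data known. Tissue pixels were summed within each library, and the sums were tested with edgeR 4.0.16 (quasi-likelihood, TMM factors, default filter by group, two-sided, Benjamini-Hochberg over 18233 genes, threshold 0.05) on all 11 libraries in 6 groups, with 5 residual degrees of freedom. The 2 libraries at 10 µm differed by 35.0 times the degrees of freedom by chi-square (genes of 100 counts or more), and the pairs at 50 µm by 38.1 to 60.8 times, so all were kept as separate samples. The test was checked on simulated data. Named genes were up to 12 called genes in each direction with the largest change and no overlap (clone names left out), every called list gene, the 3 highest and 3 most changed genes per list, the up to 12 genes with the largest ratio and the list genes at least 4-fold apart between the 2 small fields, and 5 sex-linked genes. Some genes the rule selects are not reported here. Alternatives were DESeq2 1.42.0, other scalings, filters, tissue thresholds and library sets. Counting intervals are exact at 95% and cover counting error only, since collapsing of duplicate molecules is not given.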

Additional observations from a re-analysis of the deposited data

How the results depend on the processing

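Pixel width, field and region cannot be told apart, and 2 against 3 sections limit every call. The count of 20 called genes became 403 with DESeq2 (181 lower, 222 higher), 731 without the filter on low counts (355 lower, 376 higher), 32 with the 5 libraries alone and 37 with the 6 E10 libraries. Without scaling factors it was 27 (22 lower, 5 higher). Leaving out 1 library at a time gave 0 to 164 calls. It gave 0 without E10 10 µm replicate 2 (1129 genes at an unadjusted p under 0.05), E10 50 µm replicate 1 (1618) or 3 (1281), or E11 25 µm replicate 1 (2064) or 2 (2028). Omitting E10 50 µm replicate 2 left 12, omitting E10 10 µm replicate 1 gave 163, and 155 and 164 without E11 10 µm replicates 1 and 2. The cause was not tested. Upper-quartile factors, a tissue threshold of 0.2, and leaving out pseudogenes or globin genes gave 16 each, and all pixels gave 20. No sign changed among the 20 called genes and 72 further genes of the naming rule in the alternatives that tested them. The 72 were those whose groups did not overlap and whose log2 fold change was at least 1 in size. Genes chosen that way can hardly change sign, so this is a weak check. Genes with overlapping groups, such as those of heart, were not followed one by one. Medians of 20 of 32 lists kept their sign throughout. The order of the widths in thinned shares was the same in 31 of 33 lists at a depth of 500. With other percentiles for the pigment-rich pixels, chosen after the data were seen, the radius was 7.85 to 7.98 pixels in replicate 1 and 6.06 to 6.40 in replicate 2. No paired analysis was possible because the E10 labels give no shared replicate numbers. Counts of 0 to 8 per library at 10 µm limit the precision of the 3 called Hox genes.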

Other observations

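Y-linked genes were present and the X-inactivation transcript was not: Xist had no count in any of the 5 libraries, and Ddx3y, an RNA helicase on the Y chromosome, was at 60.4 and 52.5 CPM at 10 µm and at 56.3, 55.8 and 53.3 CPM at 50 µm. All 5 sections thus carried the same pattern at a like level.

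Of the surface and gut lists, the summed levels of the large fields lay between those of the 2 small ones. Krt8, a keratin of simple epithelia, was at 22.3 and 3.59 CPM at 10 µm and at 16.5, 12.3 and 11.0 CPM at 50 µm. Tbx3, a T-box gene of limb, heart and epithelia, was at 48.2 and 6.98 CPM against 9.34 to 24.1 CPM. Fabp7, a fatty acid binding protein of neural progenitors, went the other way within the small fields, at 58.0 and 286 CPM, with 396, 147 and 326 CPM in the large ones.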
